A study of Danio rerio with 72 samples.

Results

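The 11 libraries described here hold RNA of skeletal muscle cut by laser from frozen cross-sections of the zebrafish tail at 52 hours post fertilization (hpf), out of 72 libraries in the whole study. They are the left and right muscle captures of the sections called series Z, which carry the layer numbers 1, 6, 10, 19, 22 and 25. Each section also gave a capture of neural tissue and captures of the caudal artery, the caudal vein and the caudal vein plexus, and a separate series M holds sections 2, 6, 8, 12, 15 and 17. No genotype, strain or treatment is named for any group, and all sections share the age of 52 hpf. The libraries were chosen by label alone. Of 12 muscle libraries labelled Z, the left library of layer 6 was left out, because its values were not its own: in each of its 7859 detected genes the reads are the average of the left captures in layers 1 and 10, taken to the next whole number. Section 6 is therefore represented by its right capture, and every other section by the mean of its left and right captures. The 3 sections of high layer number (19, 22 and 25) were compared with the 3 of low number (1, 6 and 10). The labels state neither the end of the tail from which layers are counted nor the embryo behind each section, so the p-values measure the spread between sections, and they would be too low were several sections cut from 1 embryo. A capture holds whatever lies inside its outline, and fewer cells of a type cannot be told apart from less RNA per cell.

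Tail muscle of the zebrafish embryo is made of fast fibres in the deep part of each segment and a superficial layer of slow fibres under the skin. Both build sarcomeres from thick filaments of myosin and thin filaments of actin, tropomyosin and troponin, but from different gene copies. Fast fibres use parvalbumins to buffer calcium and rely on glycolysis and creatine kinase, while slow fibres hold more mitochondria. Muscle segments form in order from head to tail, so the age of the fibres differs along the tail, and hox genes of the highest paralogue groups mark the posterior end of the body axis.

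Levels are given as log2(FPKM + 1), where FPKM is the read number scaled to gene length and library total. A change is the mean of the 3 high sections minus that of the 3 low sections on this scale, with the standard error (SE) of limma, and means carry the SD over n = 3 sections. Calls were made where the p adjusted by Benjamini-Hochberg lay under 0.05, over the 7293 genes with a mean level of at least 1.

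The captures carried the RNA of their labelled tissue. actc1b, the main sarcomeric actin of zebrafish muscle, had levels of 16.06 to 16.62 in the 5 low libraries and 14.91 to 15.92 in the 6 high ones. mylpfa, the regulatory light chain of fast myosin, had levels of 14.22 to 15.00 and 12.75 to 14.19. In the neural captures of the same series actc1b ran from 5.95 to 10.73 over sections and in the mean of the vascular captures from 7.32 to 10.47. The libraries differed in depth along the same axis as the comparison. Low libraries held 91104 to 655694 reads and 3463 to 7471 detected genes, and high libraries 277979 to 2991053 reads and 6915 to 10837 genes. Over the 6 sections, log10 reads rose with layer number (Pearson's r = 0.886, exact permutation p = 0.0153, and Spearman's rho = 0.886, p = 0.0333, both two-sided). Adjusted over 10 relations these p-values became 0.116 and 0.111, and r without layers 1 and 25 was 0.703. When every library was thinned to 91104 reads, low sections still held fewer detected genes (a mean of 4363.67 against 6165.17). The median change of all genes tested was +0.72, falling to +0.59 in thinned libraries and to +0.20 after quantile scaling. List medians below are to be read against the value of the same setting, also where it is not repeated. Of the 7293 genes tested, 1731 had a mean level under 1 in the low layers, so they passed through the high layers only and had to lie higher there. The reverse held for 406 genes. The shares of all genes given below include both.

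Genes called lower in the high layers coded for a sarcomeric actin, fast myosin light and heavy chains and parvalbumins. A fast tropomyosin and a fast troponin I gene were also called lower. Other copies of these families, such as acta1a and pvalb4, had changes above 0. The abundant fast genes myhz2 and tnnc2 were not called. For tnnc2, every high library (3063 to 5175 FPKM) still lay below every low one (5535 to 11456 FPKM). In the other direction, 3 mitochondrially encoded genes were higher. Of 7293 genes, limma called 10 lower (0.137% of all tested) and 3 higher (0.0411%). The 10 lower genes were actc1b, mylpfa, mylpfb, mylz3, myhz1.3, tpma, tnni2a.4, pvalb1, pvalb2 and the unnamed locus si:ch211-255p10.3. The 3 higher genes were mt-atp6, mt-co2 and mt-cyb. A slope per layer number, fitted to the same 6 sections, called 12 genes in each direction (0.165% each), and 9 of the 12 higher ones belonged to the lists of slow fibre, mitochondrial or calcium genes. With the 11 libraries kept apart, a term for the side and the section as a replicate block, 46 genes were called higher and 17 lower, and these held all 13 calls of the section means. The consensus correlation within a section was -0.021, so this fit counted its left and right libraries nearly as independent samples. Its counts are therefore not comparable with those of the 6 section means, and calls shared by fits of the same libraries are no separate support.

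actc1b stood at 16.41, 16.06 and 16.50 in layers 1, 6 and 10 and at 15.31, 15.51 and 15.34 in layers 19, 22 and 25. Every high library, left or right, lay below every low library. The change was -0.93 ± 0.09 (SE), or 1.91-fold lower on the FPKM + 1 scale (limma, adjusted p = 0.000125). After quantile scaling the change of actc1b was -0.16 and the call was lost (limma, adjusted p = 0.736). That scaling keeps only the rank of a gene within its library, so a gene at or near the top throughout, as actc1b was, could change little. By share of reads, actc1b took 10.6% ± 1.64 (SD, n = 3) in low and 5.73% ± 0.429 in high sections.

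mylpfa followed the same order, with section levels of 14.62, 14.22 and 14.76 against 13.52, 13.62 and 13.28. The 3 high sections lay below all 3 low ones, and at the level of libraries the highest of the high group (14.19, left of layer 22) lay just under the lowest of the low group (14.22, right of layer 6). The change was -1.07 ± 0.12 (limma, adjusted p = 0.00121), and the slope was -0.06 per layer. Within a section the sides could differ by nearly as much. In layer 19 mylpfa was 13.96 on the left and 13.07 on the right, and in layer 25 it was 12.75 on the left and 13.80 on the right.

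**Figure D1:**
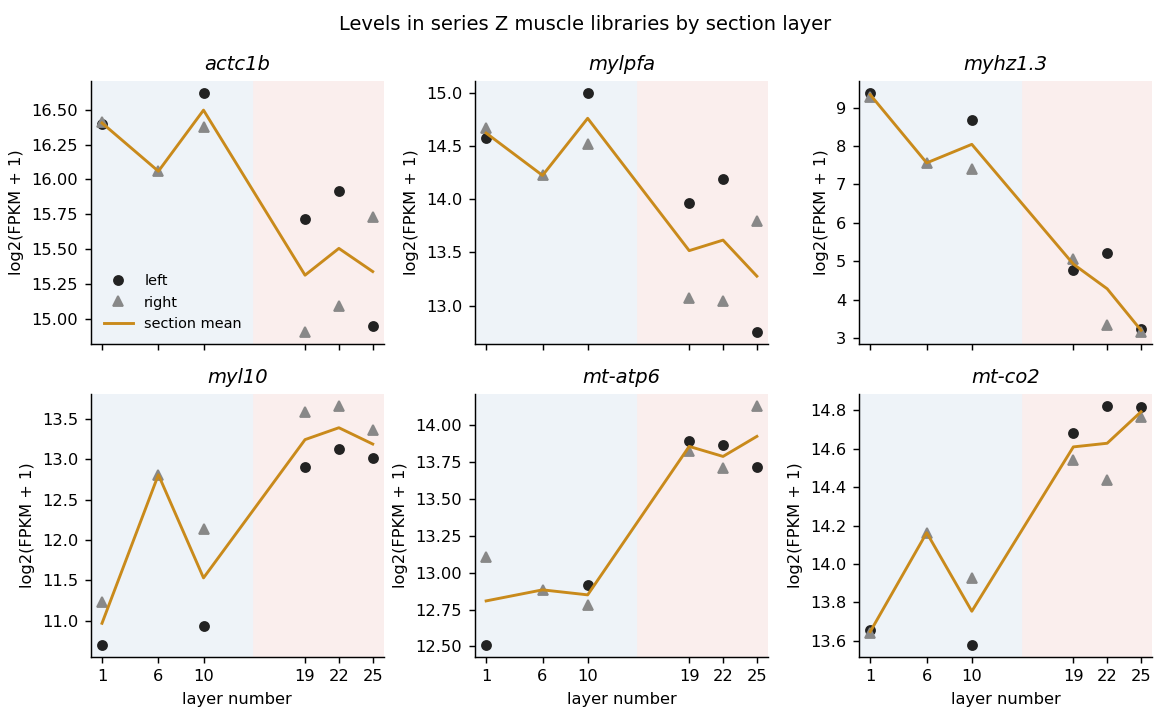
Levels of 6 genes as log2(FPKM + 1) on the y axis against layer number on the x axis, with circles for left and triangles for right libraries, a line through the section means, and low layers shaded blue and high layers red. The fast and actin genes in the upper row step down between layers 10 and 19 (actc1b from 16.50 to 15.31), and myl10, mt-atp6 and mt-co2 in the lower row step up (mt-atp6 from 12.85 to 13.86).

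Of the fast myosin and thick filament list, 19 of 22 members in the table passed the filter, and limma called 4 lower and 0 higher. The median change of the 19 was -0.96, against +0.72 for all genes, and 3 of them were above 0, as 75.0% of all genes were. The 3 high sections lay below all 3 low ones in 9 of the 19, where 1.92% of all genes did so, and above them in 1 (myom3, an M-band protein gene, with a change of 2.34 ± 0.98, not called).

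The light chain genes carried most of these calls. mylz3, an essential light chain of fast myosin, had section levels of 14.80, 13.76 and 14.29 in the low layers and 13.08, 13.15 and 12.63 in the high ones. Its change of -1.33 ± 0.20 was called (limma, adjusted p = 0.00864), as was that of mylpfb, a second copy of the regulatory light chain gene, at -1.21 ± 0.18 (adjusted p = 0.00864).

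The fast myosin heavy chain genes of the myhz1 cluster had the largest differences on the list. myhz1.3 fell from 9.34, 7.56 and 8.05 to 4.92, 4.28 and 3.20, a change of -4.18 ± 0.76 (limma, adjusted p = 0.0383). myhz1.1 had levels of 10.38, 6.85 and 5.80 against 3.29, 1.12 and 1.05, and its recovered reads numbered 5343 over the 5 low and 264 over the 6 high libraries although the high libraries were deeper. Its groups did not overlap, but the low sections were spread widely (7.68 ± 2.40), and the change of -5.86 ± 1.16 was not called (adjusted p = 0.0719). Its slope of -0.37 ± 0.05 per layer was called (limma, adjusted p = 0.000855). myhz2, another fast heavy chain gene, had similar group means, at 12.05 ± 0.97 in low and 11.77 ± 0.09 in high sections (change -0.28 ± 0.33, limma, adjusted p = 0.783). Its low sections were not alike. Left and right libraries had 1720 and 2523 FPKM in layer 1 and 8373 and 7531 FPKM in layer 10, and the right library of layer 6 had 4620 FPKM. These genes, like both mylpf copies, are close copies of each other, and reads shared between them could be split or dropped in the authors' counting, so the level of a single copy is uncertain.

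In the thin filament and Z disc list, 35 of 50 members passed the filter, limma called 3 lower and 0 higher, and the median change was -0.45. Sections did not overlap in 14 members lower, where 1.92% of all genes did so, and in 5 higher, a share near the 16.0% of all genes. tpma, a fast tropomyosin, had levels of 11.76, 11.66 and 12.27 against 10.32, 10.77 and 10.33, a change of -1.42 ± 0.23 (adjusted p = 0.0124). tnni2a.4, a fast troponin I, went from 13.90, 13.61 and 14.39 to 12.70, 12.94 and 12.66 (change -1.20 ± 0.16, adjusted p = 0.00398). The third member called was actc1b. The changes of acta1a, another sarcomeric actin (1.26 ± 0.34), and of the tropomyosins tpm2 (1.12 ± 0.54) and tpm3 (1.71 ± 0.55) were not called.

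Genes on the slow fibre list mostly had higher levels in the high layers. The list also held regulators such as sox6, so not every member is a gene particular to slow fibres. Of 24 members in the table, 16 passed the filter, and the median change was +1.34. A mean below the filter's level of 1 in the low layers was found in 2 of the 16, which passed through the high layers only. The high sections lay above all low ones in 9 of 16, where 16.0% of all genes did, and below them in 0. No member was called by the comparison of high with low (limma), while the slope called 3 higher and 0 lower (myl10, myl13 and tnni1c). The fit with the section as a replicate block called 6 members higher, where it called 46 of all 7293 genes higher. That fit counted the sides of a section nearly as independent samples, so these 6 are not comparable with calls of the section means.

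myl10, listed as a slow-type regulatory light chain, had section levels of 10.97, 12.81 and 11.53 in the low layers and 13.24, 13.39 and 13.19 in the high ones. Layer 6, with the single right library, lay nearest to the high group. The change was 1.5 ± 0.31 (limma, adjusted p = 0.0906) and the slope 0.09 ± 0.02 per layer (adjusted p = 0.0145). myl13, a slow-type essential light chain, showed the same order with 11.55, 13.14 and 12.19 against 13.59, 13.69 and 13.37 (slope adjusted p = 0.0177, limma). tnnc1b, a troponin C of slow and cardiac type, had a change of 1.25 ± 0.34 and no overlap between groups (adjusted p = 0.296). tnni1c, a slow-type troponin I, had levels of 3.33, 9.66 and 6.26 against 10.47, 10.37 and 10.62. It took 460 of the 1746266 reads of the low libraries and 10293 of the 9967765 reads of the high ones. The high libraries were deeper, so these read sums by themselves overstate its difference. smyhc1, the main slow myosin heavy chain, had 8.24 ± 0.67 in low and 9.38 ± 0.21 in high sections (change 1.14 ± 0.43, adjusted p = 0.332).

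**Figure D2:**
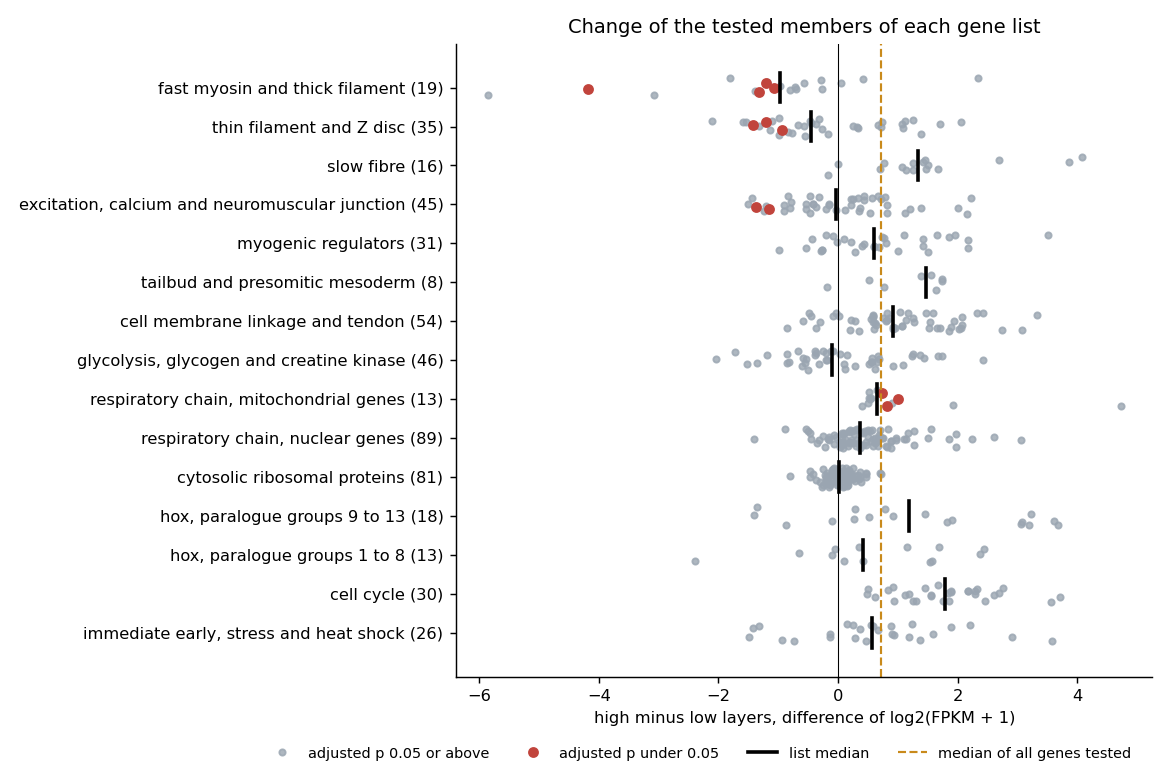
Change between high and low layers for every tested member of 15 gene lists, as a difference of log2(FPKM + 1) on the x axis, with the number tested in brackets. Red points passed limma at an adjusted p under 0.05, black bars are list medians and the dashed line is the median of all genes tested (+0.72). The median of the fast myosin list lies at -0.96 and that of the slow fibre list at +1.34.

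The balance of isoforms can be read inside each library, where the scaling to library totals cancels. The pairs were picked after their values were seen and are given as descriptions. The level of myl10 minus that of mylpfa was -3.65, -1.42 and -3.23 in layers 1, 6 and 10 and -0.27, -0.22 and -0.09 in layers 19, 22 and 25. All 6 high libraries lay above all 5 low ones, from -1.07 upwards against at most -1.42. The troponin C pair, tnnc1b minus tnnc2, went from -2.87 ± 1.23 (SD, n = 3) to -0.64 ± 0.19, again without overlap between libraries. The tropomyosin pair, tpm3 minus tpma, went from -4.46 ± 1.37 to -1.33 ± 0.26. The heavy chain pair, smyhc1 minus myhz2, went from -3.81 ± 0.97 to -2.39 ± 0.14, and single libraries of both groups overlapped. In all 4 pairs the means of the high sections were closely alike and those of the low sections were spread. Single high libraries differed more, from -2.54 to -0.05 for the tropomyosin pair and from -3.46 to -1.60 for the heavy chain pair. Section 6 is its right library alone, so the SDs of the groups are not of like means.

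**Figure D3:**
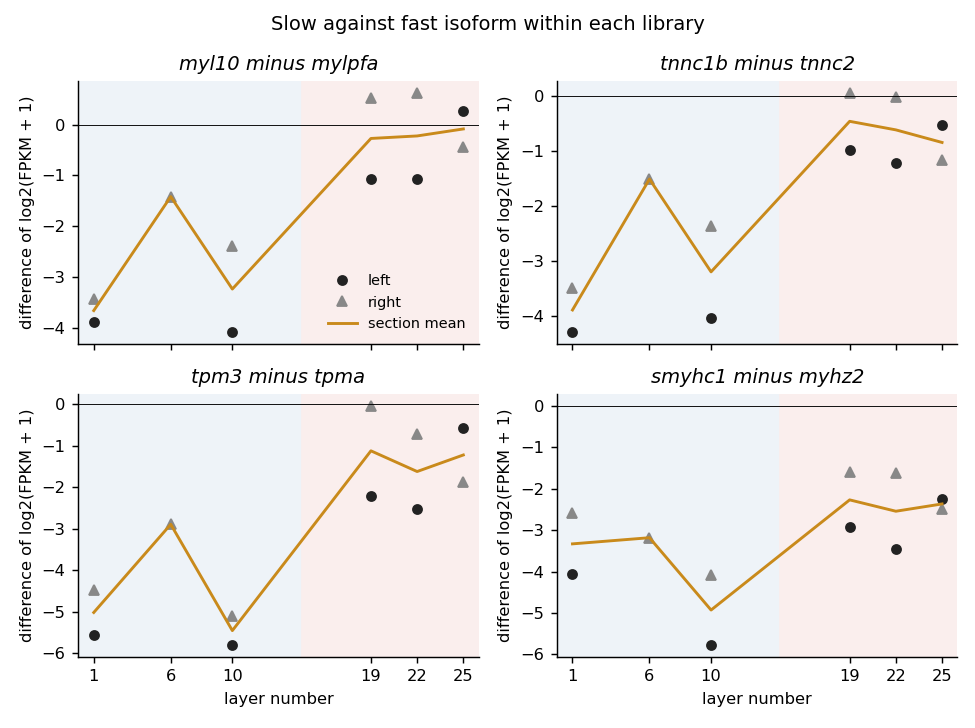
Level of a slow isoform minus that of its fast counterpart in each library, as a difference of log2(FPKM + 1) on the y axis against layer number on the x axis, with circles for left, triangles for right libraries and a line through section means. A value of 0 means equal levels per kilobase. The myl10 and mylpfa pair rises from -3.65 in layer 1 to -0.09 in layer 25, with layer 6 at -1.42.

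Of 54 genes of calcium handling and the neuromuscular junction, 45 passed the filter, 22 were above and 23 below 0, and the median change was -0.03 against +0.72 for all genes. In 5 of the 45 the mean of the low layers was under 1, so these passed through the high layers only. After quantile scaling 14 were above and 31 below 0, with a median of -0.54 against +0.20. limma called the parvalbumins pvalb1 and pvalb2 lower and no member higher. pvalb1 had levels of 15.21, 14.04 and 14.72 in the low sections and 13.37, 13.46 and 13.01 in the high ones, a change of -1.38 ± 0.21 (adjusted p = 0.00864). pvalb2 changed by -1.15 ± 0.18 (adjusted p = 0.0115). Another parvalbumin, pvalb4, ran opposite, with 10.15, 11.88 and 11.09 against 12.33, 12.37 and 12.58, and its slope of 0.09 ± 0.01 per layer was called (limma, adjusted p = 0.00862). The parvalbumins are similar in sequence, and the share of reads that could be split between copies is unknown.

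Genes encoded in the mitochondrial genome had higher levels in the high layers. All 13 mitochondrially encoded genes passed the filter and had a change above 0, beside 75.0% of all genes. In 12 of the 13 the high sections lay above all low ones, where 16.0% of all genes did so. The median change of the 13, +0.65, was below that of all genes (+0.72) as deposited. It was above that of all genes after quantile scaling (+0.57 against +0.20) and in thinned libraries (+0.68 against +0.59). Together they took 6.42% ± 0.778 (SD, n = 3) of reads in low and 10.2% ± 0.382 in high sections. mt-atp6, a subunit of ATP synthase, had levels of 12.81, 12.88 and 12.85 against 13.86, 13.79 and 13.93, a change of 1.01 ± 0.10 (limma, adjusted p = 0.000125). mt-co2, a subunit of cytochrome c oxidase, changed by 0.82 ± 0.11 (adjusted p = 0.00414) and mt-cyb, the cytochrome of complex III, by 0.73 ± 0.12 (adjusted p = 0.0133). The slope called mt-co1 and mt-co3 as well.

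The list of nuclear respiratory chain genes was drawn by name pattern and also held assembly factors such as ndufaf1 and sdhaf2. Of its 99 genes, 89 passed the filter and none was called, with a median change of +0.37. cox7c, the most abundant of these, had 11.51 ± 0.28 in low and 11.57 ± 0.19 in high sections, atp5g3b had 11.28 ± 0.16 and 11.06 ± 0.18, and atp5g1 had 10.45 ± 0.64 and 10.87 ± 0.21, the last pair coding for the membrane ring of ATP synthase. In the list of glycolysis, glycogen and creatine kinase genes, 46 of 61 members were tested, none was called, 22 were above and 24 below 0, and the median was -0.10 (+0.14 without layer 6). After quantile scaling 16 were above and 30 below 0, with a median of -0.36. The high sections lay below the low ones in 5 members, where 1.92% of all genes did so, and above them in 0, where 16.0% did. ckmb, the muscle creatine kinase with the highest level, had 13.09, 12.64 and 13.17 against 12.03, 12.37 and 11.95, a change of -0.84 ± 0.16 that missed the threshold (limma, adjusted p = 0.0578). The changes of ak1, an adenylate kinase, and ckma, another muscle creatine kinase, were -0.59 ± 0.19 and -0.55 ± 0.22, neither of them called. The list of cytosolic ribosomal protein genes, also drawn by name pattern, took in rpp14, rpp21 and rpp25l, which do not code for ribosomal proteins. It had a median change of +0.01 over 81 tested members, 41 above and 40 below 0. After quantile scaling the median was -0.14, with 24 above and 57 below 0. The most abundant, rplp0, had 12.26 ± 0.06 and 11.78 ± 0.12 (change -0.47 ± 0.15, adjusted p = 0.326), and rpl32 and rps15 had changes of 0.06 ± 0.18 and -0.02 ± 0.18.

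Growth and patterning genes were at low levels in these captures. Of 45 cell cycle members, 30 passed the filter and none was called. In 8 of the 30 the mean of the low layers was under the filter's level of 1, so these passed through the high layers only, and their direction was set by the filter. The high sections lay above all low ones in 11 of the 30, where 16.0% of all genes did so. pcna, the sliding clamp of DNA replication, had 2.15, 4.32 and 3.28 in the low sections and 7.35, 6.45 and 7.06 in the high ones (change 3.70 ± 0.86, adjusted p = 0.154). It was picked after its values were seen. The most abundant members were tuba8l and tubb2b, both tubulins, with changes of 1.18 ± 0.79 and 1.89 ± 0.81, and hmgb2a, a chromatin protein gene, with 1.75 ± 0.65.

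Among the myogenic regulators, 31 of 57 members passed the filter, none was called, 22 were above 0 and the median of +0.61 was near that of all genes. The most abundant were smyd1a, a muscle methyltransferase (change -0.29 ± 0.92), and the transcription factors mef2aa (0.59 ± 0.85) and mef2ca (-0.08 ± 0.84). Of 39 tailbud and presomitic mesoderm genes, 8 passed the filter and 31 did not. None was called, the median change was +1.47, and 7 of the 8 were above 0, as 75.0% of all genes were. In 2 the high sections lay above all low ones, where 16.0% of all genes did so. In 4 of the 8 the mean of the low layers was under 1, so these passed through the high layers only. aldh1a2, the enzyme that makes retinoic acid, had 2.66 ± 0.97 in low and 2.48 ± 1.08 in high sections, and nog2, a BMP antagonist gene, and axin2, a Wnt target, had changes of 0.52 ± 1.3 and 0.78 ± 1.27.

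Of 23 posterior hox genes (paralogue groups 9 to 13), 18 passed the filter and none was called. Their median change was +1.18, and +0.67 after quantile scaling (+0.20 for all genes). In thinned libraries it was +0.43, below the +0.59 of all genes, with 11 above and 7 below 0. In 7 of the 18 (hoxa9a, hoxa11a, hoxb10a, hoxc11b, hoxc12a, hoxc13a and hoxd9a) the mean of the low layers was under 1, so they passed through the high layers only and had to lie higher there. The high sections lay above all low ones in 5 of the 18, namely hoxd9a, hoxb10a, hoxc11a, hoxc12a and hoxc13a, and below them in 0, where 16.0% and 1.92% of all genes did so. All of these 5 but hoxc11a were among the 7 whose direction was set by the filter. Their share can therefore not be read as an excess over all genes. hoxc13a had no read in any of the 5 low libraries and 347 reads in 5 of the 6 high ones, with section levels of 3.25, 2.91 and 4.69. Against a floor of 3 reads over the low group, and relative to the reads of each group, it was at least 20.3-fold higher. The left library of layer 22 held 194 of the 347 reads, and the bound was 12.8-fold without it and 12.7-fold without the right library of layer 6. hoxc12a had 0 and 126 reads, at least 7.36-fold higher by the same floor and 4.60-fold without the right library of layer 6. These bounds cover counting error only, and amplified reads are not independent molecules. hoxc11a had 2.2, 2.1 and 1.76 in the low sections and 6.31, 5.15 and 5.62 in the high ones, a change of 3.67 ± 0.92 (limma, adjusted p = 0.252), with a level of 0 in the right libraries of layers 1 and 10.

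hoxd9a and hoxb10a had changes of 3.08 ± 1.1 and 3.06 ± 1.02. The sections overlapped in the other posterior hox genes. hoxa11b had 5.26 in layer 10, above the value of layer 25 (5.04), and a change of 3.22 ± 1.23. The 8 further genes with changes above 0 ran from 0.27 ± 1.14 (hoxa10b) to 1.91 ± 0.99 (hoxa9a), the others being hoxd13a, hoxb9a, hoxa11a, hoxd12a, hoxd10a and hoxc11b. The 4 genes with changes below 0 were hoxd11a (-0.10 ± 1.14), hoxa9b (-0.87 ± 1.32), hoxc10a (-1.35 ± 1.34) and hoxc9a (-1.40 ± 1.16). Of 25 hox genes of paralogue groups 1 to 8, 13 passed the filter, 5 of them with a mean under 1 in the low layers, and none was called. Their most abundant members hoxc6b, hoxb1b and hoxd3a had changes of -0.10 ± 1.37, 1.69 ± 1.27 and 1.57 ± 1.28.

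**Figure D4:**
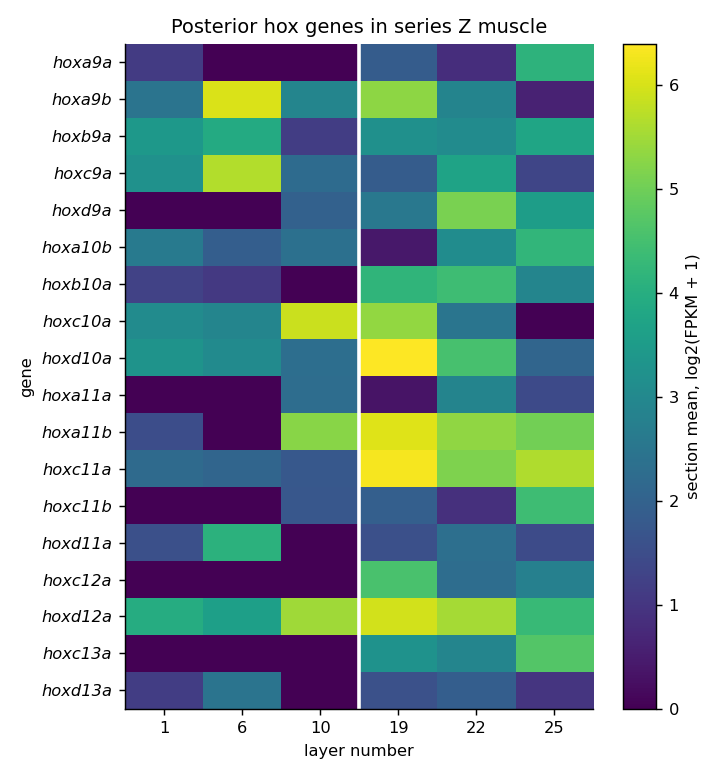
Section means of the 18 posterior hox genes that passed the filter, as log2(FPKM + 1) in colour, with layer numbers on the x axis, genes ordered by paralogue group on the y axis and a white line between low and high layers. hoxc13a and hoxc12a are at 0 in layers 1, 6 and 10, and hoxc11a rises from 1.76 in layer 10 to 6.31 in layer 19.

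The list of membrane linkage, matrix and tendon genes had 54 of 65 members tested at a median of +0.92, and none was called. The fit with the section as a replicate block, which counted sides nearly as independent samples, called 3 members higher beside 46 of all 7293 genes. In 8 of the 54 the mean of the low layers was under 1, so these passed through the high layers only, and in 1 the reverse held. In 46 the change was above 0, beside 75.0% of all genes, and in 10 the high sections lay above all low ones, a share near the 16.0% of all genes. col1a2 and col1a1b, fibrillar collagens, had changes of 1.90 ± 0.56 and 1.85 ± 0.64, and postnb, a matrix periostin, had 0.92 ± 0.55. Layer 1 held the lowest level of all 3, for col1a2 6.66 against 8.18 to 10.52 in the other sections. Stress and immediate early genes gave 26 tested of 46, none called and a median of +0.58, with hspa8, hsp90ab1 and hspe1 at 0.25 ± 0.42, 1.37 ± 0.65 and 2.21 ± 1.26.

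Beyond the lists, fewer than 5 genes were called higher, so the 12 with the smallest p among those whose sections did not overlap are named whether called or not. They were the 3 called mitochondrial genes, mt-co3, mt-nd1, myl10, myl13, pvalb4, magoh, tomm5, atox1 and NDUFAF8. magoh, of the exon junction complex, had no read in the 5 low libraries and 354 in the 6 high ones (at least 20.7-fold higher relative to the reads of each group, by the floor of 3 reads over the group, limma adjusted p = 0.0518). Its fitted change of 5.34 was 3.52 in thinned libraries, and with a low group at 0 neither is a bound. NDUFAF8, which takes part in the assembly of complex I, had 0 and 477 reads (at least 27.9-fold higher), but none in the right library of layer 19. With a low group at 0, magoh and NDUFAF8 passed the filter through the high layers only, so their direction was set by the filter. Without the right library of layer 6 the bounds of magoh and NDUFAF8 were 12.9-fold and 17.4-fold. tomm5, of the mitochondrial import pore, and atox1, a copper chaperone, had changes of 3.80 ± 0.86 and 4.63 ± 1.05, and the slope called atox1 (limma, adjusted p = 0.0302).

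Markers of neighbouring tissues also differed between sections, and their part in these results was not tested. The summed level of 31 epidermal markers ran from 9.36 to 14.87 in the low sections, with layer 1 lowest and layer 6 highest, and from 12.05 to 14.34 in the high ones. The keratin gene krt4 had 7.62, 13.55 and 11.95 against 12.51, 12.84 and 9.51, so the groups overlapped. Its most abundant companions krtt1c19e and lgals1l1 had changes of 0.48 ± 1.26 and 1.15 ± 1.1. Pigment and neural crest markers summed to 10.85 in layer 6 against 4.71 to 8.52 in the others. Of the 12 pigment and neural crest markers tested, 5 had changes above and 7 below 0, with a median of -0.38 (+1.24 without layer 6). The melanin gene tyrp1b reached 9.54 in layer 6. Above 0 were gch2, of pteridine synthesis, and tfap2a, a neural crest factor, with changes of 3.25 ± 1.03 and 2.20 ± 1.29. Fin fold and mesenchyme markers ran from 2.97 to 7.10 in low and 6.51 to 8.50 in high sections, with twist1a, pdgfra and cthrc1a at changes of 2.47 ± 1.29, 2.37 ± 1.19 and 1.31 ± 1.47. Notochord and cartilage markers ran from 6.01 to 8.62 and 7.90 to 9.16, with col2a1b, cav1 and matn4 at 1.34 ± 0.75, 0.94 ± 1.08 and 1.1 ± 0.88.

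Vessel, leukocyte and nerve markers were scarce, and erythroid markers were uneven between libraries. Erythroid markers summed to 6.49 to 8.44 in low and 7.86 to 9.42 in high sections (hbae3, hbae1.3 and sptb had changes of 1.38 ± 0.95, 1.75 ± 0.95 and 0.90 ± 0.98). For hbae3, the right library of layer 25 held 3058 of the 3510 reads of the high libraries. The right library of layer 10 held 376 of the 417 reads of the low ones. Of 24 endothelial markers, 2 had no read in any of the 11 libraries, and their sum ran from 4.18 to 4.48 and from 4.56 to 5.51. kdrl, the vascular growth factor receptor, had 0 reads in the low and 263 in the high libraries, and etv2, an early regulator of endothelial fate, had 15 and 0. Read sums in this paragraph are not scaled to depth, and the low libraries held 1746266 reads in all against 9967765 in the high ones. The change of etv2, -2.15 ± 0.81, and those of efnb2a (0.28 ± 1.1) and egfl7 (0.81 ± 0.97) were not called. Leukocyte markers summed to 2.39 to 2.85 and 4.26 to 5.80, with 3 of 25 at 0 throughout and the myeloperoxidase gene mpx at 0 and 2 reads, and apoeb with a change of 1.81 ± 1.12. Neural markers summed to 3.59 to 6.07 and 5.11 to 6.94, and elavl3, a neuronal RNA binding protein gene, had 2 reads in the low and 4 in the high libraries. fabp7a, snap25b and tuba1a had changes of 0.74 ± 1.42, 0.62 ± 0.92 and 1.94 ± 1.15. The mean of the low layers was under 1 in 3 of 6 neural markers tested (with tuba1a) and in apoeb, the 1 leukocyte marker tested. It was so in 4 of 9 fin fold, 3 of 29 epidermal and 2 of 12 pigment markers. Of the erythroid and notochord markers tested, 1 of 9 and 1 of 6 had such a mean. The direction of these was set by the filter. The reverse held for etv2 and for 1 neural and 1 erythroid marker. None of the members of these 8 marker lists was called, and no relation of a marker sum with layer passed correction over the 10 relations (lowest adjusted exact permutation p = 0.111).

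Scaling and single sections altered the size of these medians. Without layer 6 the fast myosin median moved from -0.96 to -1.22 and the slow fibre median from +1.34 to +1.64. Without layer 1 they were -0.79 and +1.03. In thinned libraries limma called 12 genes, 11 of them among the 12 with a gene name that were called in the main comparison.

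**Figure D5:**
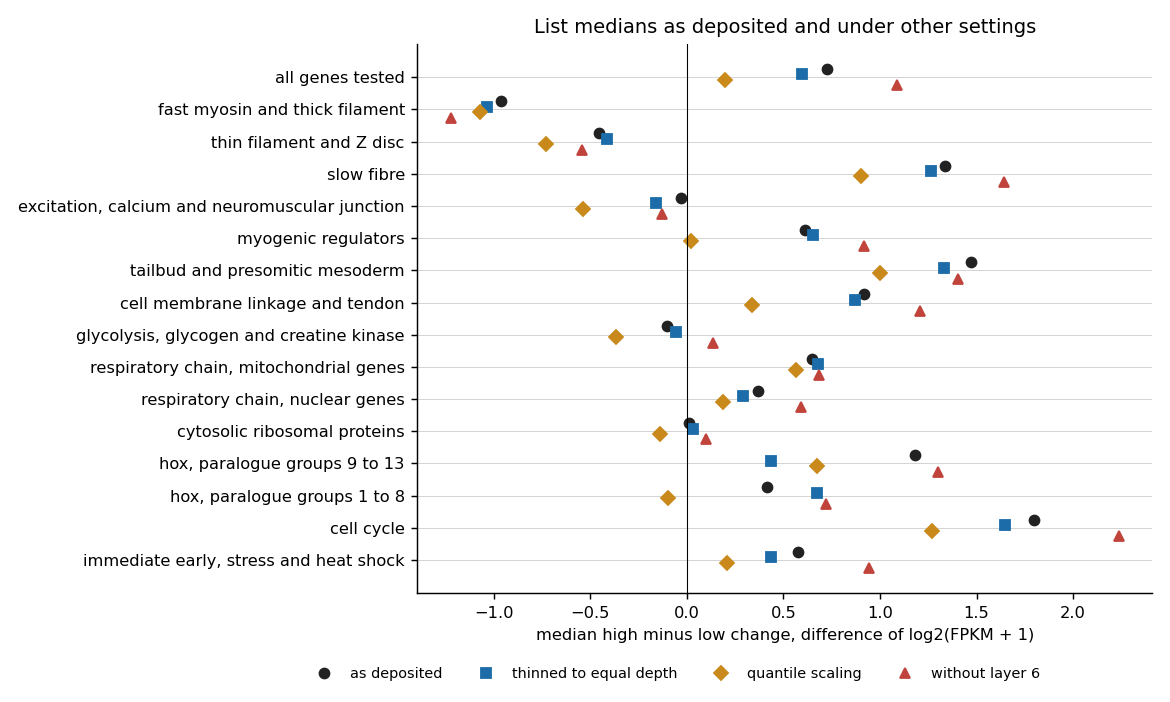
Median change between high and low layers of all genes tested and of 15 gene lists on the x axis, over the members that passed the filter, as a difference of log2(FPKM + 1), as deposited (circles), in libraries thinned to equal depth (squares), after quantile scaling (diamonds) and without layer 6 (triangles). The median of all genes moves from +0.72 to +0.20 under quantile scaling, while the fast myosin list stays below 0 and the slow fibre list at or above 0.90 in all 4.

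Reads and layer could not be separated by a covariate. With log10 reads in the model, limma called 1 gene higher, none of the 13 of the main comparison, and the lowest adjusted p among the 12 with a gene name was 0.733. The 6 sections leave few degrees of freedom once depth is fitted, and depth and layer cannot be told apart by this fit.

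The left and right muscle of a section did not resemble each other more than sections did. The consensus correlation between the sides of a section was -0.021. The layer change of the left muscle minus that of the right was fitted to the 5 sections with both sides, and limma called 0 of 7387 genes (372 at an unadjusted p under 0.05, or 5.04%). The left libraries alone gave 2 calls and the right alone 0, none of them among the 13. The changes of actc1b were -0.98 on the left and -1.04 on the right, those of mylpfa -1.15 and -1.17, and those of mt-atp6 1.11 and 0.96. In mt-co2 they were 1.16 on the left and 0.67 on the right, and in tpma -1.13 and -1.80, over 1.5 times apart. For epidermal markers the median change was +3.80 on the left and -0.65 on the right. Layer 6, where these markers were highest, entered the right side only. There krt4 was at 12033 FPKM, beside 53.9 FPKM in the right library of layer 25. The sides were thus not compared over like sections, and the difference was not tested.

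The same sections allowed muscle to be set against its neighbours. The layer change of muscle minus that of neural tissue was called for 0 of 12300 genes (1049 at an unadjusted p under 0.05, or 8.53%), and minus that of the vascular captures for 0 of 9736 (580, or 5.96%). After quantile scaling these counts were 1 and 2. The change of actc1b was +1.52 in neural tissue, and its difference of -2.46 ± 0.94 between the tissues was not called (limma, adjusted p = 0.54). The fast myosin list had a median change of +0.66 in neural tissue and +0.30 in the vascular captures, beside -0.96 in muscle. The medians of all genes were -0.02, +0.62 and +0.72 in the same order, and those of the slow fibre list were +0.98, +0.84 and +1.34. For mt-atp6 the changes were -0.14 in neural tissue and +0.36 in the vascular captures, and the difference from neural tissue of 1.15 ± 0.19 was not called (adjusted p = 0.22). hoxc13a, at 0 in the low muscle sections, was also at 0 in the low neural and vascular sections and reached 9.02 and 5.74 there in layer 25.

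Series M gave another set of muscle sections, in which layers 12, 15 and 17 were compared with 2, 6 and 8. Its layer numbers are not stated to match those of series Z. limma called 1 of 6351 genes lower (0.0157%) and 0 higher, with 371 at an unadjusted p under 0.05 (5.84%). The called gene was myhz1.1, with levels of 9.18, 8.06 and 7.15 in the low and 4.41, 4.40 and 3.47 in the high layers, a change of -4.04 ± 0.54 (adjusted p = 0.0095). Sections did not overlap between groups there either. The call was lost without layer 6 of series M, where 0 genes were called. myhz1.3 had a change of -1.19 ± 0.34 in series M (adjusted p = 0.494).

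The medians of the fast, slow and mitochondrial lists had the same sign in series M, while those of some other lists, the hox genes among them, did not. Of 19 fast myosin genes tested, 17 were below 0 (median -0.37) and 4 lay lower without overlap, where 5.42% of all genes did, and of 14 slow fibre genes 11 were above 0 (median +0.27), where 2533 of 5174 genes tested in both series were above 0 (median -0.02). Of the slow fibre genes 0 lay higher and 1 lower without overlap. Of 13 mitochondrial genes, 12 were above 0 (median +0.61) and 1 lay higher without overlap, where 4.76% of all genes did. The leading genes of series Z were not called there. Their changes were -0.29 ± 0.20 for actc1b, -0.33 ± 0.20 for mylpfa, 0.45 ± 0.61 for myl10 and 0.58 ± 0.21 for mt-atp6. hoxc13a was at 0 in all 6 sections of series M. The median of the posterior hox genes was -0.48 in series M (5 above and 9 below 0), against +1.18 in series Z (+0.43 in thinned libraries). Hox genes of groups 1 to 8 had -0.63 against +0.42, and myogenic regulators -0.32 (10 above and 18 below 0) against +0.61. For these 3 lists the series M medians cover the 14, 11 and 28 members tested in both series. Those of series Z cover all 18, 13 and 31 tested there, among them genes that passed the filter through the high layers only. The medians are therefore not of like sets, and the part of this in the difference was not tested. Epidermal markers had a median change of +2.20 in series M, with 12 of 27 lying higher without overlap, and their part in the values of series M was not tested.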

How the data were processed

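The values are FPKM (reads scaled to gene length and library total), which the authors deposited as 1 table per series for 25067 genes. The submitters' processing notes name FastQC, HISAT, HTSeq, DESeq2 and the build GRCz10, without versions or roles, and per the labels' protocols the RNA was amplified as for single cells. FPKM lowers all other genes where a few take most reads. Whole reads were recovered from the steps of the FPKM values (within 0.145% in series Z) and used for depth, thinning and limma-voom. Every value column was matched to a library by name (0 left over).

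Levels were log2(FPKM + 1), a pseudocount of 1, which understates changes of low genes. Sides were averaged per section, genes with a mean level of at least 1 were kept, and limma-trend (limma 3.58.1, R 4.3.3) was run per comparison with Benjamini-Hochberg adjustment, two-sided. All libraries of a section share its layer number, so the replicate block pairs left and right of a section. Correlations used all 720 orders of the sections (SciPy 1.17.1). The fit was tested on simulated data. None of 55 pairs of muscle libraries agreed within sampling noise.

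Members, gene lists and tests were chosen with earlier results of these data known. Named genes were, per direction, the 12 largest changes among called genes without overlap, or the 12 smallest p where fewer than 5 were called, with clone-style names left out, plus called or else the 3 most abundant members of each list and all posterior hox genes tested. Genes named outside this rule (myhz1.1, myhz2, myom3, tnni1c, smyhc1, tpm2, tpm3, acta1a, tnnc2, mt-co1, pcna, kdrl, elavl3 and mpx) were chosen after their values were seen.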

Additional observations from a re-analysis of the deposited data

How the results depend on the processing

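The comparison of high with low layers called 13 genes. It called 12 with a pseudocount of 0.1, 15 after quantile scaling (5 higher and 10 lower, against 3 and 10), 12 in thinned libraries and 10 with limma-voom on recovered reads. It called 3 without a filter on low values (18370 genes tested), 2 on the left libraries alone, 0 on the right alone, 63 with the section as a replicate block, 55 with the excluded left library of layer 6 averaged in, and 1 with log10 reads as a covariate. Leaving out 1 section gave 2 to 67 calls, with 67 without layer 6 and 2 without layer 25. The slope called 24 genes, and 9 without a filter, 0 on the right libraries, 109 with the replicate block, 140 with the excluded library in, 0 with log10 reads and 12 with the rank of the layer. Leaving out 1 section gave 1 (without layer 1) to 244 (without layer 6). Muscle minus neural tissue gave 0 calls, and 1 after quantile scaling. Muscle minus the vascular captures gave 0, and 2 after quantile scaling. Left minus right gave 0 under every alternative run. Series M gave 1 call, 35 without a filter, 7 after quantile scaling, and 0 to 21 with 1 section left out. The cause was not tested, except that fewer samples or more genes tested enter some of these fits.

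None of the 12 called genes with a gene name changed sign under 16 alternatives. mt-atp6 kept its call in 13, actc1b in 12 and mylpfa in 11, and the other 9 in 5 to 9. The change of actc1b ran from -1.06 to -0.16, the last under quantile scaling, where its adjusted p was 0.736 (range over the alternatives 1.46e-08 to 0.736, limma). Quantile scaling keeps ranks alone, which leaves little room for change in a gene as abundant as actc1b. Of 77 named genes that were not called, 46 changed sign under at least 1 alternative. For the median gene, 1 read was worth 0.564 to 3.91 FPKM in the low and 0.125 to 1.27 FPKM in the high libraries. The bounds against a low group at 0 were also computed without each library in turn, an alternative chosen after seeing the data.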
